A study of Arabidopsis thaliana with 24 samples.

Results

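The comparison asked how far the transcriptional response of Arabidopsis roots to aluminum (Al) depends on STOP1, with the acidity and the phosphate (Pi) supply of the medium held the same with and without Al. The contrast took 8 of the 24 RNA-seq libraries of the series, chosen by their genotype and medium: 2 each from wild-type -Pi_pH5, wild-type +Al, *stop1* -Pi_pH5 and *stop1* +Al. The fit held 12 further libraries, which entered no difference of means in the contrast but added to the estimate of the spread. Wild type was the accession Col-0, and *stop1* was the T-DNA insertion line SALK_114108 in the same background, so that the mutant is represented by a single allele. Seedlings of the contrast were moved 5 days after germination for 16 h into a liquid medium with 0 mM Pi at pH 5, and the +Al medium differed from -Pi_pH5 by added AlCl3, for which the sample labels give 100 µM and the methods 200 µM. RNA came from root tip sections of about 10 mm, pooled from about 150 seedlings per treatment, and the 2 libraries of a condition are biological replicates. Of the further groups, 4 are reported on below: wild-type +Pi_pH5 (1 mM Pi, pH 5), wild-type ++Fe (0.1 mM Pi and 0.1 mM added FeSO4, pH 5), and wild-type and *stop1* -Pi_pH6 (0 mM Pi, pH 6), none with added Al. The other 2 were wild-type +Pi_pH6 (1 mM Pi, pH 6) and *stop1* ++Fe (medium as for wild-type ++Fe), also without added Al.

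STOP1 is a zinc finger transcription factor needed for root growth in acidic and Al-containing soils. It activates *ALMT1*, a malate channel whose exudate chelates Al outside the root, and *ALS3*, a half-size ABC transporter subunit thought to move Al away from sensitive tissues. Roots that cannot detoxify Al stop elongating and accumulate callose and reactive oxygen species. The quantity reported here as the interaction is the Al response of *stop1* minus the Al response of wild type, where an Al response is the +Al mean minus the -Pi_pH5 mean on the log2(CPM + 1) scale and CPM is the deposited read count normalised to library size and composition. A positive interaction means a higher response value in *stop1*, either because the gene rose more or because it fell less, and a negative one the opposite. limma was fitted across all 20450 genes, p-values were adjusted by the Benjamini-Hochberg method, and a gene was called when its adjusted p was under 0.05. Fold changes are ratios of the mean CPM of 2 libraries. Interaction values are on the log2(CPM + 1) scale, except those named as from edgeR or DESeq2, which are log2 fold changes of fitted counts. The added 1 (the pseudocount) understates each response of a low gene, so it can make an interaction smaller or larger. With pseudocounts of 0.1, 1 and 5 the interaction was 1.76, 2.91 and 3.08 for *FOX1*, and 4.27, 3.75 and 2.67 for *PA2*.

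The 8 libraries held between 17027929 and 21774148 reads on genes, so that a single read corresponded to 0.0450 to 0.0557 CPM. A group in which both libraries held 3 reads or fewer was taken as at the limit of detection, and folds against it are lower bounds. *STOP1* itself was at 125 and 149 CPM in wild-type -Pi_pH5, 108 and 135 in wild-type +Al, 46.6 and 57.8 in *stop1* -Pi_pH5 and 31.6 and 35.8 in *stop1* +Al. The 4 *stop1* libraries lay below the 4 wild-type libraries with no overlap, and reads on the gene were not absent from the insertion line. The replicates of a condition correlated at 0.976 (wild-type +Al) to 0.991 (*stop1* +Al) across genes on the log2 scale. The wild-type +Al pair was the most divergent, and replicate 2 exceeded replicate 1 in 80.3% of the genes with a higher response in *stop1*, against 49.8% of all genes. Among the genes with a lower response in *stop1*, replicate 2 was below replicate 1 in 70.9%, against 50.2% of all genes. Replicate 2 of wild-type +Al was more often on the side of the *stop1* +Al libraries. Reads on organelle genes were 0.00701 to 0.262% of each library.

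The Al response of 1135 genes (5.55%) differed between the genotypes by the test of the interaction in the fit of 20 libraries. With the 8 libraries alone 860 genes were called, of which 720 were among the 1135. Of the 1135, 468 genes (2.29% of those tested) had a higher response in *stop1*, among them the indolic glucosinolate genes *CYP81F2* and *MYB122*, the peroxidase gene *PA2* and the abscisic acid gene *NCED3*. The other 667 genes (3.26%) had a lower response in *stop1*, among them the potassium transporter gene *HAK5*, the cell wall gene *DGR2*, the nitrate transporter gene *NRT1.1* and 14 aquaporin genes. The median interaction was 1.31 in the first set and -1.41 in the second, against 0.0089 over all genes. It was 1.36 and -1.43 when the 49 and 20 genes at the limit of detection in some group were set at their bound. The interaction was above 1 in 365 of the 468 genes and below -1 in 542 of the 667.

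In wild type 670 genes (3.28%) were called for Al, 448 rising (2.19%) and 222 falling (1.09%), whereas in *stop1* 2975 genes rose (14.5%) and 3017 fell (14.8%). The wild-type count was 240 and 300 without wild-type -Pi_pH5 replicates 1 and 2, 1180 without wild-type +Al replicate 1 and 232 without its replicate 2. The *stop1* count of 5992 was 3883 without *stop1* -Pi_pH5 replicate 1 and 3992 without *stop1* +Al replicate 2. For each of the 1135 genes the 4 possible library-pair responses in *stop1* lay wholly on one side of the 4 in wild type. Over all genes this held for 18.4% on the higher side and 16.4% on the lower side. The separation is computed from the same values as the test of the interaction, so it describes the called genes and adds no support. In bulk root tissue fewer cells of a type and less RNA per cell cannot be told apart, which holds for every value below. The number of calls in the interaction depended on single libraries. It was 712 without wild-type -Pi_pH5 replicate 1, 725 without its replicate 2, 632 without wild-type +Al replicate 1, 607 without *stop1* -Pi_pH5 replicate 1, 676 without *stop1* +Al replicate 1 and 666 without its replicate 2. It rose to 1786 without wild-type +Al replicate 2, the library that lay nearer to *stop1*. The share of higher genes among the calls was 41.2%, and it moved to 31.2% with a pseudocount of 0.1, 52.6% with a pseudocount of 5 and 30.4% with edgeR's quasi-likelihood test.

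**Figure D1:**
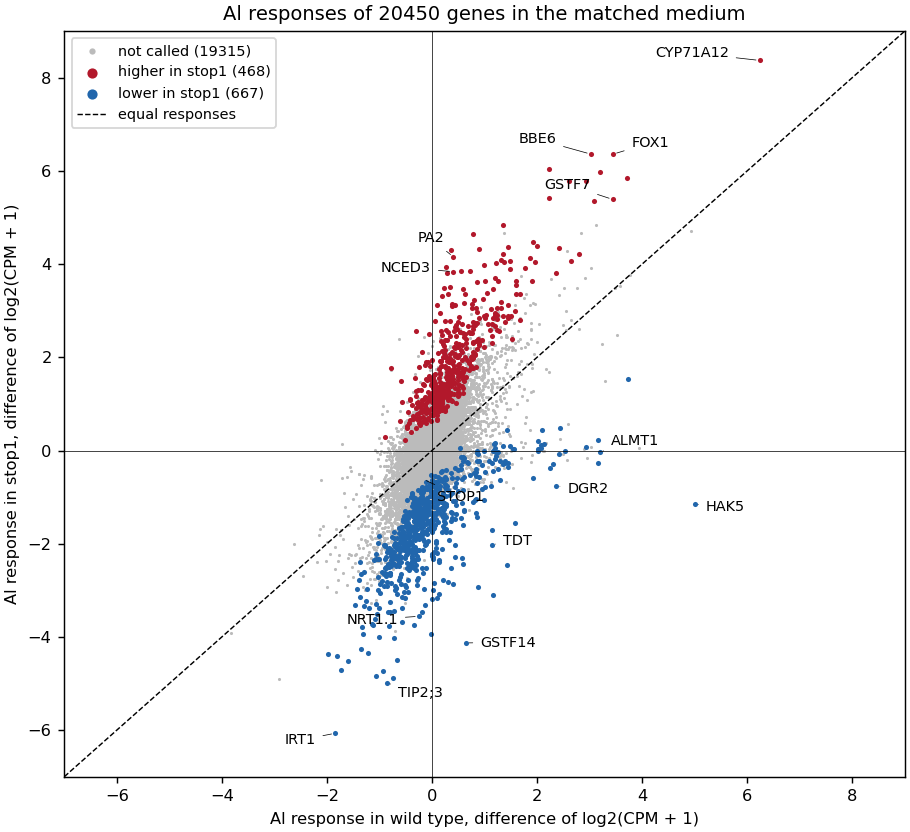
Al response in wild type (x axis) against Al response in *stop1* (y axis), both as differences of log2(CPM + 1), for 20450 genes; red points are the 468 genes with a higher response in *stop1*, blue points the 667 with a lower one, grey points are not called, and the dashed line marks equal responses. *HAK5*, *ALMT1* and *DGR2* lie to the right of the line at positive wild-type responses, *NRT1.1* and *IRT1* below it, and *PA2* and *NCED3* above it near a wild-type response of 0.

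Most of the interaction lay in genes that moved in *stop1* and passed no test in wild type. Of the 468 higher genes, 380 (81.2%) rose in *stop1* and were not called in wild type, with a median response of 1.54 in *stop1* and 0.23 in wild type. Another 85 rose in both genotypes, by a median of 2.89 in *stop1* and 1.24 in wild type, 2 were called in neither, and 1 fell in wild type alone. Of the 667 lower genes, 538 (80.7%) fell in *stop1* and were not called in wild type, with medians of -1.59 and -0.25. A further 50 fell in both, by medians of -2.57 in *stop1* and -1.01 in wild type. Of the remaining lower genes, 56 rose in wild type and were not called in *stop1* (medians 1.26 and -0.09). Another 15 rose in wild type and fell in *stop1* (1.12 and -0.83), 2 rose in both and 6 were called in neither. These classes follow from the tests that define the interaction and describe its make-up.

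The interaction is computed from the -Pi_pH5 and the +Al libraries, so the genotype differences within each medium describe how it is made up and are no test. The median of *stop1* minus wild type in -Pi_pH5 was 0.05 for the higher genes and 0.08 for the lower genes, and the difference was within 1 on the log2 scale for 98.3% and 94.2% of them, against 99.0% of all genes. In +Al the same medians were 1.39 and -1.31, against -0.02 over all genes. The Al responses of wild type and *stop1*, which share no library, correlated across all genes with Pearson's r = 0.65 and Spearman's rho = 0.57, and the slope of *stop1* on wild type was 1.22. Without wild-type +Al replicate 2 the r was 0.45. Genes are not independent replicates, so these coefficients are descriptions. Of the 670 genes called in wild type, 612 had the same sign in *stop1* and 440 had a larger response there in the wild-type direction. Of these 670 genes, 531 were called in the same direction in both and 15 in opposite directions.

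Among genes listed as targets of STOP1 or as parts of Al tolerance, 8 had lower responses in *stop1*. This list, like the others below, was chosen with earlier results of these data known, so its counts are descriptions. Of 22 listed genes 20 were in the table, 8 of them were called lower (3.26% of all genes), none higher (2.29%) and 12 not called, with 4 of the 20 above 0 and a median interaction of -0.78. *ALMT1* (AT1G08430, chr1:2658602-2661310) was at 23.1 and 21.6 CPM in wild-type -Pi_pH5 and at 243 and 187 in wild-type +Al. The 4 *stop1* libraries held 2, 0, 1 and 0 reads of it, at the limit of detection in both media. The wild-type rise was 9.62-fold (adjusted p = 8.0e-07), and no fold can be given for *stop1*. The interaction of *ALMT1* (-3.23, SE 0.31, adjusted p = 2.8e-05) depends on the pseudocount, and it was not called by edgeR's likelihood ratio test (adjusted p = 0.15), its quasi-likelihood test (0.35) or DESeq2 (0.15), over alternatives that ranged from a log2 fold change of -4.25 in DESeq2 to -3.00 with a pseudocount of 5.

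*HAK5* (AT4G13420, chr4:7796782-7802251 in TAIR10.1), which encodes a high-affinity potassium uptake transporter of the root, had the lowest interaction of the 20450 genes. Its CPM was 1.83 and 3.73 in wild-type -Pi_pH5, 93.0 and 147 in wild-type +Al, 7.08 and 5.91 in *stop1* -Pi_pH5 and 3.12 and 1.75 in *stop1* +Al. Only the wild-type +Al libraries were high, and the *stop1* +Al libraries lay below both *stop1* -Pi_pH5 libraries. *HAK5* rose 43.1-fold in wild type (adjusted p = 1.1e-07) and fell 2.67-fold in *stop1* (adjusted p = 0.0047), an interaction of -6.16, SE 0.38, adjusted p = 5.4e-07. *DGR2*, which encodes a cell wall protein with a DUF642 domain, was already lower in *stop1* without Al. It went from 232 and 244 to 1174 and 1292 CPM with Al in wild type and from 52.9 and 55.3 to 28.9 and 34.5 in *stop1*. The 4 groups did not overlap, wild type rose 5.19-fold and *stop1* fell 1.71-fold (interaction -3.13, SE 0.16, adjusted p = 7.5e-08).

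The tonoplast dicarboxylate transporter gene *TDT*, whose product moves malate between vacuole and cytosol, showed the same crossing. Its libraries were at 25.7 and 35.6 CPM in wild-type -Pi_pH5, 56.0 and 82.9 in wild-type +Al, 17.42 and 15.4 in *stop1* -Pi_pH5 and 4.22 and 2.52 in *stop1* +Al. Every *stop1* +Al value was below every *stop1* -Pi_pH5 value and every wild-type +Al value above every wild-type -Pi_pH5 value (interaction -3.17, SE 0.31, adjusted p = 3.8e-05). *ALS3* was at 8.56 and 8.49 CPM in wild-type -Pi_pH5 and 16.9 and 28.2 with Al, and at 7.85 and 8.73 and then 6.196 and 5.97 in *stop1*. Only the wild-type +Al libraries stood above the others (interaction -1.65, SE 0.26, adjusted p = 0.0014). *GDH1*, a glutamate dehydrogenase gene, rose 2.64-fold in wild type, from 61.0 and 65.9 to 156 and 179.7 CPM, and was at 25.1 and 28.7 without Al and 22.1 and 22.5 with Al in *stop1*. The interaction of *GDH1* was -1.64, SE 0.15, adjusted p = 2.2e-05. The sulfate transporter family gene *SULTR3;5* (-1.70) and the vacuolar iron and nickel transporter gene *IREG2* (-1.38) were also called lower, *IREG2* after falling in both genotypes and the call of *SULTR3;5* lost on leaving out wild-type -Pi_pH5 replicate 2, wild-type +Al replicate 1, *stop1* -Pi_pH5 replicate 1 or *stop1* +Al replicate 2.

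Other members of the list had no interaction that passed the test. *PGIP1*, which encodes a polygalacturonase inhibitor of the cell wall, was lower in *stop1* throughout but rose in both genotypes: it went from 67.4 and 94.3 to 245 and 579.6 CPM in wild type and from 7.28 and 12.7 to 36.1 and 31.0 in *stop1*. Its rise was 5.098-fold in wild type and 3.36-fold in *stop1*, and the interaction was -0.53 (adjusted p = 0.66). It was -1.15 without wild-type +Al replicate 1 and 0.09 without its replicate 2, so its direction rests on that pair. *STOP2*, a close homolog of *STOP1*, was at 40.9 and 45.4 CPM in wild-type -Pi_pH5 and 50.4 and 64.7 in wild-type +Al, and at or near 0 in the *stop1* libraries (0.239 and 0.0462 without Al, 0 and 0 with Al). Its interaction was -0.59 (adjusted p = 0.19), a value set by the pseudocount since *stop1* is at or near 0: it was -1.56 with a pseudocount of 0.1, and the log2 fold change was -5.07 in both edgeR tests and -4.43 in DESeq2. *GDH2* had an interaction of -0.66 (adjusted p = 0.19) and *ALS1*, a tonoplast half-size ABC transporter gene, one of 0.57 (adjusted p = 0.093). For *STOP1* itself the value was -0.44 (adjusted p = 0.4).

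**Figure D2:**
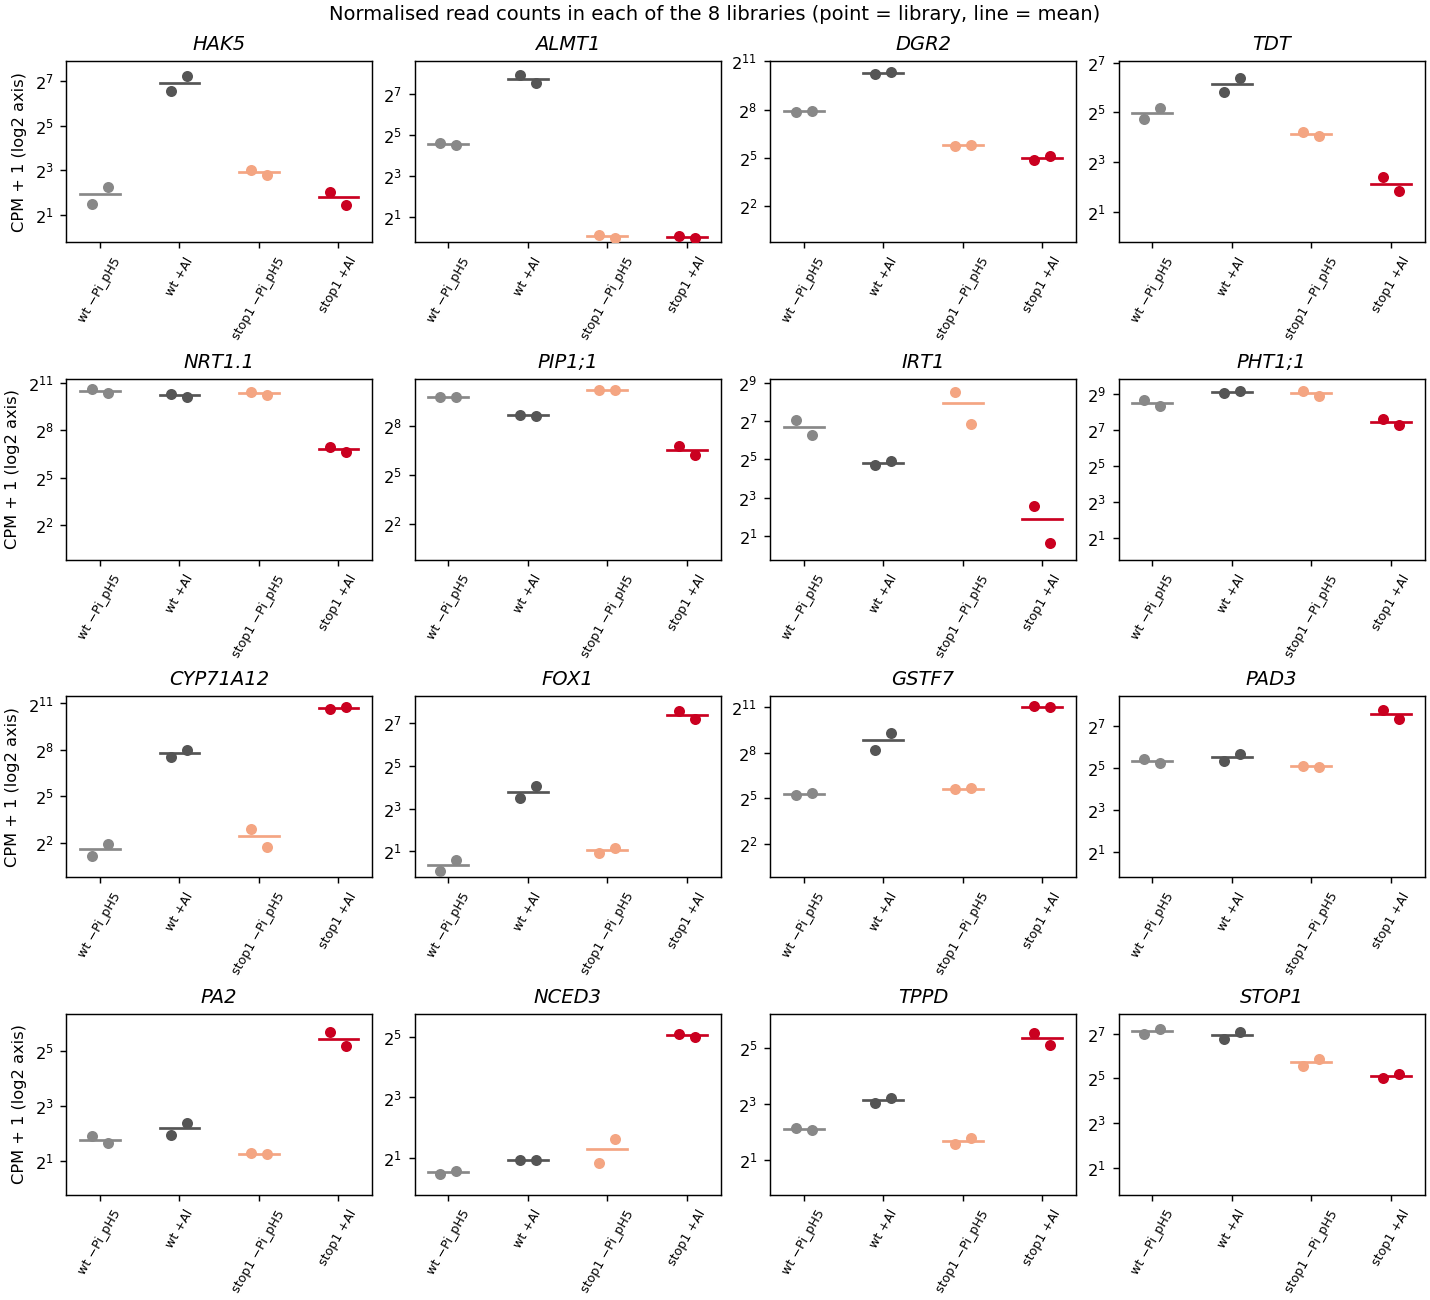
CPM + 1 on a log2 axis for 16 genes in wild-type -Pi_pH5, wild-type +Al, *stop1* -Pi_pH5 and *stop1* +Al; each point is a library and each line the mean of 2. *HAK5*, *ALMT1*, *DGR2* and *TDT* are highest in wild-type +Al, *NRT1.1*, *PIP1;1*, *IRT1* and *PHT1;1* are lowest in *stop1* +Al, *CYP71A12* to *TPPD* are highest in *stop1* +Al, and *STOP1* is lower in all 4 *stop1* libraries.

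Besides *HAK5*, *DGR2* and *TDT*, 12 genes rose with Al in wild type and fell in *stop1*, and all 15 were called in the interaction. They included the plasma membrane proton pump gene *HA7*, the tonoplast monosaccharide transporter gene *TMT1*, the abscisic acid receptor gene *PYL4*, the amine oxidase gene *AO1*, the kinase gene *STY46* and *HS1*, named for a heat stable protein. *HA7* was at 109 and 116 CPM in wild-type -Pi_pH5, 231 and 267 in wild-type +Al, 99.2 and 92.9 in *stop1* -Pi_pH5 and 28.4 and 29.2 in *stop1* +Al. It rose 2.22-fold in wild type and fell 3.34-fold in *stop1*, with no overlap between media in either genotype (interaction -2.84, SE 0.23, adjusted p = 9.4e-06). *TMT1* rose 2.46-fold in wild type, from 151 and 176 to 406 and 397 CPM, and fell 1.55-fold in *stop1*, from 109.7 and 108 to 67.8 and 72.9. *AT5G52790*, which encodes a CBS domain protein, was at 33.4 and 24.4 CPM in wild-type -Pi_pH5 and at 72.6 and 57.8 with Al. In *stop1* it went from 27.2 and 29.1 to 3.26 and 1.75 CPM, below all other libraries (interaction -4.25, SE 0.39, adjusted p = 2.2e-05). *AT1G51830*, a leucine-rich repeat kinase gene, was low in every *stop1* library (5.65 and 3.32 without Al, 1.33 and 0.437 with Al) and rose in wild type from 130.5 and 149 to 379 and 459.9. The interactions of the other 8 genes ran from -2.28 (*AT3G62270*, a member of the bicarbonate transporter family) to -0.91 (*AT5G26670*, which encodes a pectin acetylesterase family protein).

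Aquaporins are channels for water and small solutes in the plasma membrane (PIP) and the tonoplast (TIP). The aquaporin and nitrate families were singled out after their values were seen, and their counts are descriptions. Of 34 aquaporin genes 29 were in the table, 14 were called lower, none was called higher, and the median was -1.11, against 3.26% of all genes called lower. In *stop1* 21 of the 29 fell (14.8% of all genes) and 4 rose (14.5%), whereas in wild type 6 fell (1.09%) and 1 rose (2.19%). The summed CPM of the family was 7267 and 6598 in wild-type -Pi_pH5, 5061 and 4192 in wild-type +Al, 9006 and 9324 in *stop1* -Pi_pH5 and 2461 and 2193 in *stop1* +Al, so the *stop1* libraries were the highest without Al and the lowest with it.

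*PIP1;1* (AT3G61430, chr3:22733243-22735394) had the smallest p of the family. Its CPM was 872 and 900.4 in wild-type -Pi_pH5 and 407 and 397 in wild-type +Al, and 1213 and 1173 without Al and 109 and 73.5 with Al in the *stop1* libraries. The 4 groups did not overlap, and the fall was 2.21-fold in wild type and 13.1-fold in *stop1* (interaction -2.58, SE 0.23, adjusted p = 1.9e-05). *PIP2;2* went from 968 and 1008 to 497 and 487 CPM in wild type and from 1177 and 1388 to 139.9 and 106 in *stop1* (interaction -2.38, SE 0.21, adjusted p = 1.9e-05). The tonoplast gene *TIP2;3* was at 112 and 69.6 without Al and 63.7 and 36.4 with Al CPM in wild type, and at 133 and 141 without Al and 5.42 and 1.94 with Al in *stop1*. It fell 37.2-fold in *stop1* and passed no test in wild type (adjusted p = 0.41). *PIP1;4* took another route to a lower response, since it rose 2.24-fold in wild type, from 67.3 and 47.0 to 115 and 141 CPM, and was at 68.9 and 58.7 without Al and 50.6 and 42.9 with Al in *stop1*. Of the PIP genes that share sequence, *PIP2;2* shares 19.6% of its 50-base stretches with another gene and *PIP2;3* 21.7%, so that their split of reads is uncertain.

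Of 41 genes for nitrate and peptide transport and nitrate assimilation 33 were in the table, 7 were called lower (3.26% of all genes) and none higher (2.29%), with a median of -0.14 and 26 genes not called. *NRT1.1* (AT1G12110, chr1:4105223-4109601), the dual-affinity nitrate transporter and sensor, was at 1568 and 1305 CPM in wild-type -Pi_pH5, 1287 and 1124 in wild-type +Al, 1415 and 1197 in *stop1* -Pi_pH5 and 125 and 96.3 in *stop1* +Al. Only the *stop1* +Al libraries were low, and the gene fell 11.8-fold in *stop1* and passed no test in wild type (adjusted p = 0.63, interaction -3.31, SE 0.27, adjusted p = 1.2e-05). Nitrate reductase *NIA1*, the first enzyme of nitrate assimilation, showed the same pattern: 614 and 762 without Al and 704 and 799.7 with Al CPM in wild type, and 535 and 683 without Al and 91.0 and 55.3 with Al in *stop1* (interaction -3.21, SE 0.43, adjusted p = 5.2e-04). Nitrite reductase *NIR1*, the next enzyme, fell 4.38-fold in *stop1* (interaction -1.85, SE 0.34, adjusted p = 0.0044). The second nitrate reductase gene *NIA2* was not called.

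**Figure D3:**
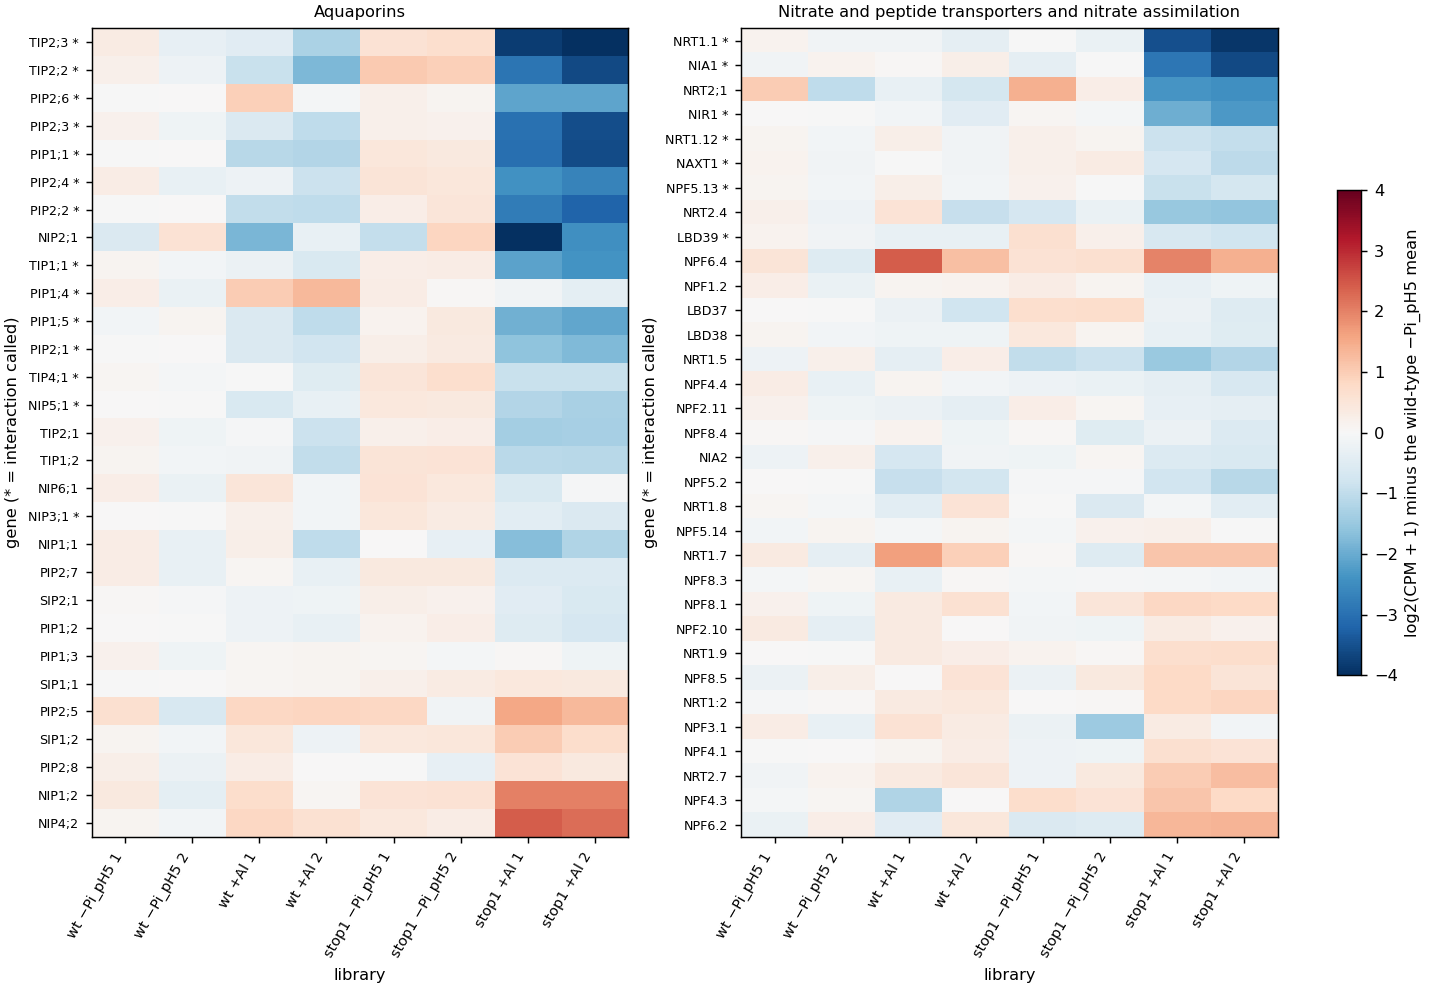
Expression of 29 aquaporin genes (left) and 33 nitrate genes (right) in the 8 libraries as log2(CPM + 1) minus the mean of wild-type -Pi_pH5, with blue for lower and red for higher values and an asterisk on genes called in the interaction. The 14 called aquaporins and 7 called nitrate genes are lower in the *stop1* +Al columns than in the *stop1* -Pi_pH5 columns.

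Other genes among the 10 lower genes with the smallest p were lowest in *stop1* +Al. *AT4G15390*, which encodes a HXXXD-type acyl-transferase, went from 909 and 944 to 582.5 and 520.1 CPM in wild type and from 1012 and 1055 to 38.6 and 29.9 in *stop1*. The *stop1* +Al libraries were far below the other 6, a 30.1-fold fall against 1.68-fold in wild type (interaction -4.13, SE 0.25, adjusted p = 5.4e-07). *ATL15*, from a RING-type ubiquitin ligase family, fell 12.7-fold in *stop1*, from 65.2 and 69.3 to 6.33 and 4.27 CPM, and was at 63.9 and 64.3 without Al and 50.8 and 61.2 with Al in wild type (interaction -3.26, SE 0.23, adjusted p = 2.3e-06). *ATL15* shares 38.7% of its 50-base stretches with another gene. *AT3G20380*, a TRAF-like family gene, had a lower response as well: it was at 76.4 and 82.9 without Al and 128 and 169 with Al CPM in wild type, and at 61.8 and 41.0 without Al and 6.196 and 5.39 with Al in *stop1* (interaction -3.80, SE 0.34, adjusted p = 1.9e-05). *SBP3*, which encodes a selenium-binding protein, fell 4.16-fold in *stop1* (interaction -1.88, SE 0.17, adjusted p = 1.9e-05).

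The iron uptake genes *IRT1*, *FRO2* and *FIT* had lower responses in *stop1*. Arabidopsis takes up iron through the reductase FRO2 and the transporter IRT1, both activated by the factor FIT. Of 34 iron homeostasis genes 6 were called lower (3.26% of all genes), none higher (2.29%) and 28 not called, with a median of -0.55 (-0.68 with the 7 members at the limit of detection in some group set at their bound). *IRT1* (AT4G19690, chr4:10707344-10709015) was at 130.4 and 76.2 CPM in wild-type -Pi_pH5, 24.8 and 29.6 in wild-type +Al, 369 and 113 in *stop1* -Pi_pH5 and 4.91 and 0.582 in *stop1* +Al. Its replicates differed widely in *stop1*, yet both *stop1* +Al libraries lay below all the others, and the fall was 87.7-fold (interaction -4.22, SE 0.73, adjusted p = 0.0031). In wild type *IRT1* was 3.80-fold lower with Al, which missed the threshold (adjusted p = 0.069).

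*FRO2* followed the same order, with 35.5 and 27.0 CPM in wild-type -Pi_pH5, 16.1 and 12.9 in wild-type +Al, 124 and 29.4 in *stop1* -Pi_pH5 and 1.56 and 0.825 in *stop1* +Al (interaction -3.78, SE 0.60, adjusted p = 0.0015). *FIT* fell in both genotypes, 1.90-fold in wild type and 6.42-fold in *stop1* (interaction -1.65, SE 0.26, adjusted p = 0.0015). The nicotianamine synthase gene *NAS1*, whose product chelates iron for transport within the plant, went from 176 and 126 to 16.0 and 4.56 CPM in *stop1* and was at 165 and 126 without Al and 157 and 130.4 with Al in wild type (interaction -3.93, SE 0.48, adjusted p = 2.7e-04). *BHLH100*, an iron deficiency transcription factor gene, had no read in either *stop1* +Al library and was at least 16.8-fold lower there than in *stop1* -Pi_pH5 (interaction -1.94, not called with a pseudocount of 5). The ubiquitin ligase gene *BTSL1* was called lower as well (-1.15), though the call was lost on leaving out wild-type -Pi_pH5 replicate 2, wild-type +Al replicate 1, *stop1* -Pi_pH5 replicate 1 or *stop1* +Al replicate 2. edgeR's likelihood ratio test called 11 iron genes lower and DESeq2 10, each with 1 higher.

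All 4 groups lacked Pi, and genes of the Pi starvation response were called on both sides of the interaction. Of 25 genes 3 were called higher (2.29% of all genes) and 2 lower (3.26%), with a median of 0.08. The Pi transporter gene *PHT1;1* was at 399.6 and 319 CPM in wild-type -Pi_pH5, 518 and 566 in wild-type +Al, 572 and 473 in *stop1* -Pi_pH5 and 191 and 153 in *stop1* +Al. The *stop1* +Al libraries were the lowest and the gene fell 3.04-fold in *stop1* (interaction -2.20, SE 0.24, adjusted p = 1.0e-04). Its neighbour *PHT1;2* was called lower too (-1.25), a call lost on leaving out any 1 of the 8 libraries other than wild-type +Al replicate 2 or *stop1* -Pi_pH5 replicate 2, and 42.4% and 45.4% of the 50-base stretches of these genes occur in another gene. *SPX3*, a Pi sensing SPX domain gene, moved the other way, from 0.670 and 1.062 to 24.97 and 18.98 CPM in *stop1* against 0.282 and 0.582 without Al and 0.892 and 2.52 with Al in wild type (interaction 2.76, SE 0.45, adjusted p = 0.0021). With edgeR's quasi-likelihood test *SPX3* was not called. *PHT1;5*, a Pi transporter gene with at most 4 reads in the other 6 libraries, was at least 10.6-fold higher in *stop1* +Al than in *stop1* -Pi_pH5. The count of higher genes ran from 1 to 6 over the alternatives.

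Markers of root hair cells had lower responses in *stop1*. Of 6 root hair markers 5 were called lower, against 3.26% of all genes (median -1.46), and all 6 fell in *stop1* (14.8% of all genes). Their summed CPM was 958 and 1192 in wild-type -Pi_pH5, 1113 and 536 in wild-type +Al, 939.8 and 1088 in *stop1* -Pi_pH5 and 279 and 241 in *stop1* +Al. Wild-type +Al replicate 2 lay between the other wild-type libraries and *stop1* +Al. The expansin gene *EXPA7*, which acts in root hair initiation, was at 95.9 and 106 CPM in wild-type -Pi_pH5, 90.0 and 50.01 in wild-type +Al, 88.9 and 97.1 in *stop1* -Pi_pH5 and 21.6 and 19.9 in *stop1* +Al (interaction -1.53, SE 0.36, adjusted p = 0.02). *RHD2*, the NADPH oxidase of root hair growth, fell 2.33-fold in *stop1* (interaction -0.81, SE 0.22, adjusted p = 0.045). The call count of the list was 0 on leaving out any 1 of the 8 libraries other than wild-type -Pi_pH5 replicate 2 or wild-type +Al replicate 2 and 1 on leaving out wild-type -Pi_pH5 replicate 2, and it was 2 with library size scaling, with a pseudocount of 5 or with the 8 libraries alone. The part of root hair cell number in the transporter, iron and cell wall results was not tested.

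Of 8 endodermis markers 2 were called lower (3.26% of all genes, median -0.64), namely *CASP1*, which builds the Casparian strip (-0.89), and the peroxidase gene *PER64* (-0.68). In *stop1* 6 of the 8 markers fell (14.8% of all genes). Their summed CPM was 325 and 290.5 in wild-type -Pi_pH5, 304 and 254 in wild-type +Al, 395 and 428 in *stop1* -Pi_pH5 and 259.5 and 214 in *stop1* +Al. Their call count was 0 on leaving out any 1 of the 8 libraries other than wild-type +Al replicate 2 or *stop1* +Al replicate 1. None of the root cap, xylem and phloem or root meristem markers was called by limma (4, 8 and 4 genes), with medians of -0.52, -0.10 and 0.13. An unadjusted p under 0.05 was reached by 2, 1 and 0 of them, and edgeR's quasi-likelihood test, its likelihood ratio test and DESeq2 called 0, 1 and 1 of the root cap markers and 0 of the vascular and 0 of the meristem markers. Photosynthesis genes, as markers of shoot tissue, had a median of -1.04 over 49 genes and no call by limma, with 2 at an unadjusted p under 0.05 and 0, 2 and 2 called by the same 3 tests. Their summed CPM was 845 in wild-type +Al replicate 1 and between 183 and 375 in the other 7 libraries, so that library stood apart.

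Genes that loosen the cell wall during growth, the xyloglucan endotransglucosylases (XTH) and expansins, had more calls on the lower than on the higher side. Of 58 listed genes 44 were in the table, 12 were called lower (3.26% of all genes) and 2 higher (2.29%), with a median of -0.29. *XTH17* was at 58.4 and 46.02 CPM in wild-type -Pi_pH5, 55.1 and 25.6 in wild-type +Al, 81.1 and 83.9 in *stop1* -Pi_pH5 and 8.12 and 10.4 in *stop1* +Al. The *stop1* +Al libraries were the lowest (interaction -2.58, SE 0.42, adjusted p = 0.0021). *XTH4* rose 2.80-fold in wild type, from 41.8 and 46.8 to 138 and 109.6 CPM, and was at 45.1 and 45.99 without Al and 38.2 and 37.1 with Al in *stop1* (interaction -1.72, SE 0.24, adjusted p = 7.2e-04). *XTH11* went the other way, from 0.814 and 1.062 to 11.2 and 10.5 CPM in *stop1* against 0.846 and 1.70 without Al and 1.51 and 2.83 with Al in wild type (interaction 2.14, SE 0.33, adjusted p = 0.0013). The count of lower genes was 6 on leaving out wild-type -Pi_pH5 replicate 1, wild-type +Al replicate 1 or *stop1* +Al replicate 2, and that of higher genes 5 on leaving out wild-type +Al replicate 2.

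The genes with higher responses in *stop1* were led by genes that were low in the other conditions, some of them at or near 0. The peroxidase gene *PA2* (AT5G06720, chr5:2077382-2079005) was at 2.73 and 2.13 CPM in wild-type -Pi_pH5, 2.90 and 4.27 in wild-type +Al, 1.44 and 1.39 in *stop1* -Pi_pH5 and 50.4 and 35.0 in *stop1* +Al. Only the *stop1* +Al libraries were high, a 30.3-fold rise (interaction 3.75, SE 0.26, adjusted p = 2.3e-06), and the wild-type response passed no test (adjusted p = 0.33). The peroxidase gene *AT5G19880* went from 0.527 and 0.323 to 40.2 and 30.1 CPM in *stop1* and was at 0.141 and 0.339 without Al and 1.059 and 1.17 with Al in wild type (interaction 3.88, SE 0.41, adjusted p = 6.8e-05). *NCED3*, which encodes the rate-limiting enzyme of stress-induced abscisic acid synthesis, was at 0.376 and 0.485 CPM in wild-type -Pi_pH5, 0.892 and 0.899 in wild-type +Al, 0.766 and 2.08 in *stop1* -Pi_pH5 and 33.3 and 31.5 in *stop1* +Al. It rose 22.8-fold in *stop1* and was not called in wild type (adjusted p = 0.56, interaction 3.43, SE 0.39, adjusted p = 1.2e-04).

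*ABCG16*, a half-size ABC transporter gene, followed the same pattern, with 38.7 and 38.8 CPM in *stop1* +Al and between 1.02 and 3.96 in the other 6 libraries (interaction 3.14, SE 0.37, adjusted p = 1.8e-04). *TPPD*, a trehalose-6-phosphate phosphatase gene, rose in both genotypes, 2.32-fold in wild type (3.43 and 3.25 to 7.25 and 8.23 CPM) and 17.7-fold in *stop1* (1.96 and 2.45 to 45.0 and 33.1). Its rise was larger in *stop1* (interaction 2.62, SE 0.28, adjusted p = 8.4e-05). The receptor kinase gene *RK3* and the lectin kinase gene *AT1G70130* were at the limit of detection in *stop1* -Pi_pH5 and were at least 61.3-fold and 35.99-fold higher in *stop1* +Al. *AT4G19970*, annotated as a nucleotide-diphospho-sugar transferase, had no read in any of the 4 -Pi_pH5 libraries, 4 reads in each wild-type +Al library, and 287 and 323 in *stop1* +Al, at least 102-fold above *stop1* -Pi_pH5. *AT5G43870*, which belongs to a DUF828 family, rose 5.25-fold in *stop1* (interaction 1.78, SE 0.20, adjusted p = 1.4e-04). The calls of *RK3* and *AT4G19970* were lost in edgeR's tests and in DESeq2.

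A list of camalexin, berberine bridge enzyme and WRKY defence genes had calls on the higher side. Camalexin, the main phytoalexin of Arabidopsis, is made from tryptophan through CYP79B2, CYP71A12 and PAD3. The berberine bridge enzyme (BBE) genes on chromosome 1, of which FOX1 is a member, encode oxidases. Of 25 listed genes 22 were in the table, 11 were called higher (2.29% of all genes), none lower (3.26%) and 11 not called, and the median was 1.62 (1.71 with the 4 members at the limit of detection in some group set at their bound). In *stop1* 18 of the 22 rose (14.5% of all genes) and in wild type 8 (2.19%), with none falling in either. The W-box is the binding motif of WRKY factors, which act in defence. Its letters were looked for gene by gene in the promoters of the 11 called list members and the 10 higher genes with the smallest p. For 8 of them 26 bases are shown, around the nearest match that lay with its flanks before the start, so that the setting of the motif can be read beside the values. Each is given 5′ to 3′ on the strand of its gene, with the W-box letters (TTGACC or TTGACT, or their reverse complements) in capitals, from the TAIR10.1 assembly of RefSeq.
BBE6: gtattagcctGGTCAAaacaaacacc
BBE4: atatgacaaaAGTCAAacataaatta
FOX1: tggaaaaaatGGTCAAgattgtcaag
BBE7: acaaaacagaAGTCAAttatatatta
CYP81F2: aaattaaaagAGTCAAagttcaaaat
FRK1: caacatcttaTTGACCaaatgttttt
ABCG16: cattaattaaTTGACCaaacactatg
RK3: ttatttgctaGGTCAActatgaattg

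These matches lie 142 bases before the start of *BBE6* (chr1:9140566-9140591), 70 bases before the start of *BBE4* (chr1:9131834-9131859), 30 bases before the start of *FOX1* (chr1:9128583-9128608) and 46 bases before the start of *BBE7* (chr1:9143367-9143392), all on the minus strand. The others lie 109 bases before the start of *CYP81F2* (chr5:23187721-23187746) on the plus strand, and 29 bases before the start of *FRK1* (chr2:8329958-8329983), 107 bases before the start of *ABCG16* (chr3:20419002-20419027) and 94 bases before the start of *RK3* (chr4:11393305-11393330) on the minus strand. No match was in the 300 bases of *PAD3*, *CYP71A12*, *CYP79B2*, *MYB51*, *MYB122*, *NCED3*, *TPPD*, *AT5G19880*, *AT4G19970* and *AT5G43870*. *PA2* had 2 matches and *AT1G70130* had 1, which are not shown. The interaction of *FRK1* was 1.27, and 0.51 to 2.42 over the alternatives. A match is a string of letters, not a shown binding site.

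The BBE genes were close to 0 without Al in both genotypes and rose in both. *BBE6* had no read in wild-type -Pi_pH5 and was at 6.63 and 7.64 CPM in wild-type +Al, 0.191 and 0.231 in *stop1* -Pi_pH5 and 103 and 94.3 in *stop1* +Al. Its level with Al was higher in *stop1* with no overlap, and the rise was at least 49.8-fold in wild type and 468-fold in *stop1* (interaction 3.34, SE 0.28, adjusted p = 1.4e-05). *FOX1* was at 0.0470 and 0.485 CPM in wild-type -Pi_pH5, 10.15 and 15.7 in wild-type +Al, 0.862 and 1.25 in *stop1* -Pi_pH5 and 192 and 145 in *stop1* +Al (interaction 2.91, SE 0.55, adjusted p = 0.0058). *BBE4* and *BBE7* had interactions of 3.18 and 1.93. From the recovered reads none of these 4 was called by edgeR's tests or DESeq2, and *FOX1*, *BBE4* and *BBE7* were not called with a pseudocount of 0.1 either. The direction of *BBE6* turned to -1.41 in both edgeR tests and -0.79 in DESeq2, and that of *BBE4* to -0.08 in DESeq2.

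*CYP71A12* rose steeply in both genotypes, from 1.27 and 2.81 to 188 and 259.9 CPM in wild type and from 6.61 and 2.35 to 1579.9 and 1775 in *stop1*. The *stop1* +Al libraries were the highest, and the interaction lay at the threshold (2.13, SE 0.59, adjusted p = 0.048) and was lost on leaving out wild-type -Pi_pH5 replicate 2, wild-type +Al replicate 1, *stop1* -Pi_pH5 replicate 2 or either *stop1* +Al library. *PAD3*, the last enzyme of camalexin synthesis, rose in *stop1* and passed no test in wild type: it was at 41.6 and 36.1 CPM in wild-type -Pi_pH5, 38.7 and 50.1 in wild-type +Al, 32.7 and 32.4 in *stop1* -Pi_pH5 and 214 and 160.5 in *stop1* +Al. It rose 5.75-fold in *stop1* (interaction 2.29, SE 0.50, adjusted p = 0.013), and the call was lost on leaving out wild-type -Pi_pH5 replicate 1, wild-type +Al replicate 1 or *stop1* +Al replicate 1. *MYB122*, a regulator of indolic glucosinolate synthesis, rose 8.06-fold in *stop1*, from 4.79 and 4.52 to 37.1 and 37.95 CPM, and was at 3.15 and 3.05 without Al and 3.62 and 6.34 with Al in wild type (interaction 2.26, SE 0.39, adjusted p = 0.0031). *CYP81F2*, which modifies indolic glucosinolates, rose in both genotypes and more in *stop1* (interaction 2.38, SE 0.40, adjusted p = 0.0024). The calls of *MYB122* and *CYP81F2* were kept in every alternative. The list count was 6 on leaving out wild-type +Al replicate 1 or *stop1* +Al replicate 1, 5 with edgeR's quasi-likelihood test, and 6 with its likelihood ratio test, DESeq2 or a pseudocount of 0.1.

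Glutathione S-transferases (GST), which conjugate glutathione to reactive and foreign compounds, mostly did not pass the test. Of 50 genes 5 were called higher (2.29% of all genes) and 3 lower (3.26%), with a median of 0.35. In *stop1* 20 rose (14.5% of all genes) and in wild type 4 (2.19%). *GSTF7* (AT1G02920, chr1:658578-659980) was at 36.4 and 39.2 CPM in wild-type -Pi_pH5, 282 and 624 in wild-type +Al, 46.7 and 50.4 in *stop1* -Pi_pH5 and 2110.1 and 2046 in *stop1* +Al. The *stop1* +Al libraries were the highest, wild-type +Al came between, and the rise was 11.99-fold in wild type and 42.8-fold in *stop1* (interaction 1.95, SE 0.40, adjusted p = 0.0087). Its neighbour *GSTF6* had an interaction of 2.13, with 9.41% of its 50-base stretches in another gene, and its call was lost on leaving out wild-type -Pi_pH5 replicate 2, wild-type +Al replicate 1 or *stop1* -Pi_pH5 replicate 1. *GSTF14* went the other way, from 68.3 and 29.2 to 2.48 and 0.971 CPM in *stop1* and at 85.7 and 100.1 without Al and 148 and 141 with Al in wild type, a 28.3-fold fall in *stop1* (interaction -4.77, SE 0.67, adjusted p = 6.8e-04). *GSTU27* fell 2.85-fold in *stop1* (interaction -1.40, SE 0.18, adjusted p = 3.1e-04). The count of higher genes was 2 on leaving out wild-type -Pi_pH5 replicate 2, wild-type +Al replicate 1 or *stop1* -Pi_pH5 replicate 1, 3 on leaving out either *stop1* +Al library and 13 on leaving out wild-type +Al replicate 2.

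Of 13 ethylene, auxin and abscisic acid genes 4 were called higher (2.29% of all genes) and none lower (3.26%, median 0.86). In wild type none of the 13 passed the test for Al (3.28% of all genes did). Besides *NCED3* the genes called higher were the ethylene synthesis genes *ACS6* (1.03) and *ACS7* (1.85) and *ASA1*, which encodes an anthranilate synthase subunit of tryptophan synthesis. *ASA1* was at 63.8 and 62.0 CPM in wild-type -Pi_pH5, 77.6 and 126 in wild-type +Al, 54.5 and 50.1 in *stop1* -Pi_pH5 and 294 and 265 in *stop1* +Al (interaction 1.75, SE 0.27, adjusted p = 0.0015). Wild-type +Al replicate 2 lay nearer to *stop1* +Al than replicate 1. The call of *ACS7* was lost on leaving out either wild-type -Pi_pH5 library, wild-type +Al replicate 1, *stop1* -Pi_pH5 replicate 1 or *stop1* +Al replicate 1.

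Stress genes with chaperone and antioxidant roles mostly did not pass the test. Of 23 antioxidant genes 1 was called higher (2.29% of all genes) and 1 lower (3.26%), with a median of 0.46. In *stop1* 11 of them rose (14.5% of all genes) and in wild type 2 (2.19%). *MDAR1*, which regenerates ascorbate, was at 196 and 196 CPM in wild-type -Pi_pH5, 214 and 256 in wild-type +Al, 231 and 227 in *stop1* -Pi_pH5 and 429 and 417 in *stop1* +Al. Its interaction (0.63, SE 0.14, adjusted p = 0.016) was lost on leaving out any 1 of the 8 libraries other than wild-type +Al replicate 2 or *stop1* +Al replicate 2. *MDAR3*, of the same family, fell 2.66-fold in *stop1* (interaction -1.16, SE 0.22, adjusted p = 0.005). The ascorbate peroxidase gene *APX1* had an interaction of 0.46 (adjusted p = 0.28) and the dehydroascorbate reductase gene *DHAR2* one of 0.27 (adjusted p = 0.61).

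Of 29 heat shock factors and chaperones none was called by limma (median -0.51), and of 12 endoplasmic reticulum stress genes the unfolded protein factor gene *BZIP60* alone was called higher (1.30, SE 0.30, adjusted p = 0.018, lost on leaving out wild-type -Pi_pH5 replicate 2, wild-type +Al replicate 1, *stop1* -Pi_pH5 replicate 1 or *stop1* +Al replicate 1). The heat shock factor genes *HSFA1E* and *HSFA3* rose in both genotypes, 2.03-fold and 2.66-fold in wild type and 3.73-fold and 5.81-fold in *stop1*. Their interactions were 0.86 (adjusted p = 0.11) and 0.94 (adjusted p = 0.18). The plastid chaperone gene *HSP21* was at 0.0470 and 0.242 CPM in wild-type -Pi_pH5, 0 and 6.97 in wild-type +Al, 0 and 4.62 in *stop1* -Pi_pH5 and 0 and 2.67 in *stop1* +Al. In all 4 groups replicate 2 was the higher library, and the interaction was -1.61 (adjusted p = 0.53). limma called none of 15 hypoxia, 21 mitotic and 15 DNA damage genes, with medians of -0.21, 0.11 and -0.01. An unadjusted p under 0.05 was reached by 3 heat shock, 2 hypoxia, 0 mitotic and 3 DNA damage genes. edgeR's quasi-likelihood test, its likelihood ratio test and DESeq2 called 0 heat shock, 0 mitotic and 0 DNA damage genes and 0, 1 and 1 hypoxia genes.

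**Figure D4:**
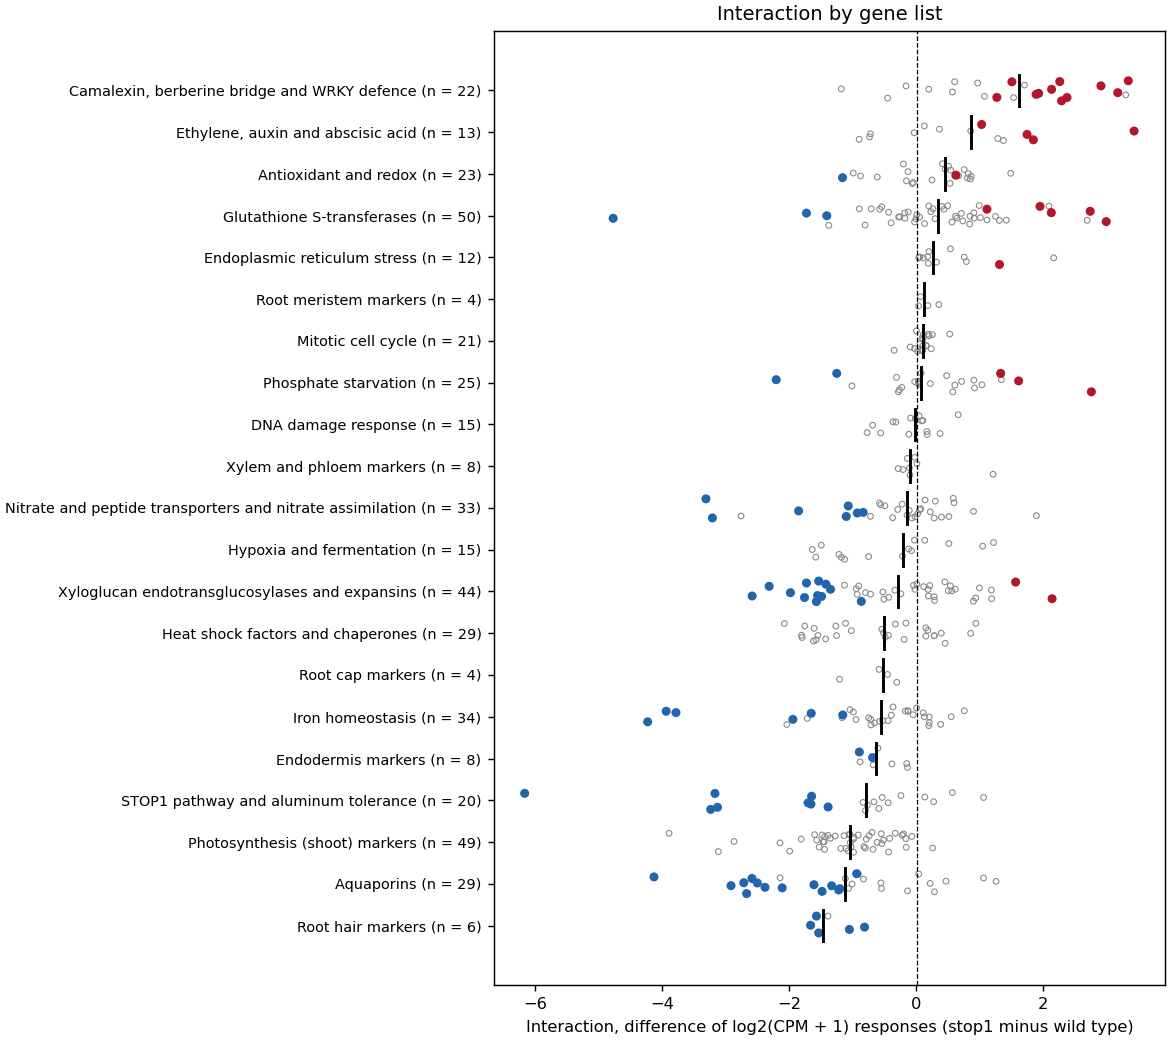
Interaction (x axis, difference of log2(CPM + 1) responses, *stop1* minus wild type) of each member of 21 gene lists; red and blue points are called higher and lower, open points are not called, black bars are list medians and the dashed line is the median of all genes. The camalexin list has 11 red points and a median of 1.62, whereas the aquaporins have 14 blue points and a median of -1.11.

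The interaction genes were then followed in a contrast that shares no library with the interaction contrast, although these libraries were in the fit of 20 and added to its estimate of the spread. The response to excess iron was taken in wild type as ++Fe against +Pi_pH5, both at pH 5, where the ++Fe medium also had less Pi (0.1 against 1 mM). Of all genes 9.67% rose and 6.86% fell in this contrast, 3379 genes in all. That number was 1740 and 1715 without wild-type +Pi_pH5 replicates 1 and 2 and 1975 without wild-type ++Fe replicate 2. Of the 468 genes with a higher Al response in *stop1*, 246 (52.6%) rose with ++Fe and 7 fell, with a median of 0.66. Of the 667 genes with a lower one, 198 (29.7%) fell and 41 rose, with a median of -0.32. The median over all genes was -0.01. For the genes called with the 8 libraries alone, 197 of 385 higher genes (51.2%) rose and 8 fell, with a median of 0.68, and 148 of 475 lower genes (31.2%) fell and 28 rose, with a median of -0.36.

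Of the 22 camalexin, BBE and WRKY defence genes 16 rose with ++Fe and none fell, and of 50 GST genes 24 rose, 2 fell and 24 were not called. *CYP71A12* was at 1.19 and 1.81 CPM in wild-type +Pi_pH5 and at 663 and 305 in wild-type ++Fe (difference 7.50, adjusted p = 5.6e-08). *GSTF7* went from 57.3 and 42.6 to 1381 and 1651 CPM (difference 4.91, adjusted p = 7.2e-08). *PAD3* was not called there, with 46.5 and 37.8 CPM in +Pi_pH5 and 47.6 and 15.3 in ++Fe (difference -0.61, adjusted p = 0.25), and neither was *SPX3* (-0.21, adjusted p = 0.7) or *TPPD* (0.29, adjusted p = 0.33).

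Among the lower genes, *NRT1.1* fell in ++Fe from 1256 and 1272 to 447 and 420.2 CPM (difference -1.54, adjusted p = 8.3e-05) and *AT4G15390* from 1459 and 1186 to 297 and 427 (-1.88, adjusted p = 7.9e-06). Most aquaporins were not called there, with 2 of 29 rising and 2 falling. *PIP1;1* was at 1055 and 945 CPM in +Pi_pH5 and 742 and 797 in ++Fe (difference -0.38, adjusted p = 0.12). Of 34 iron homeostasis genes 23 fell with ++Fe, *IRT1* from 474 and 488 to 0.649 and 0.332 CPM. *HAK5* rose in ++Fe (1.69, adjusted p = 5.9e-04), as did *ALMT1* (1.06, adjusted p = 0.004).

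**Figure D5:**
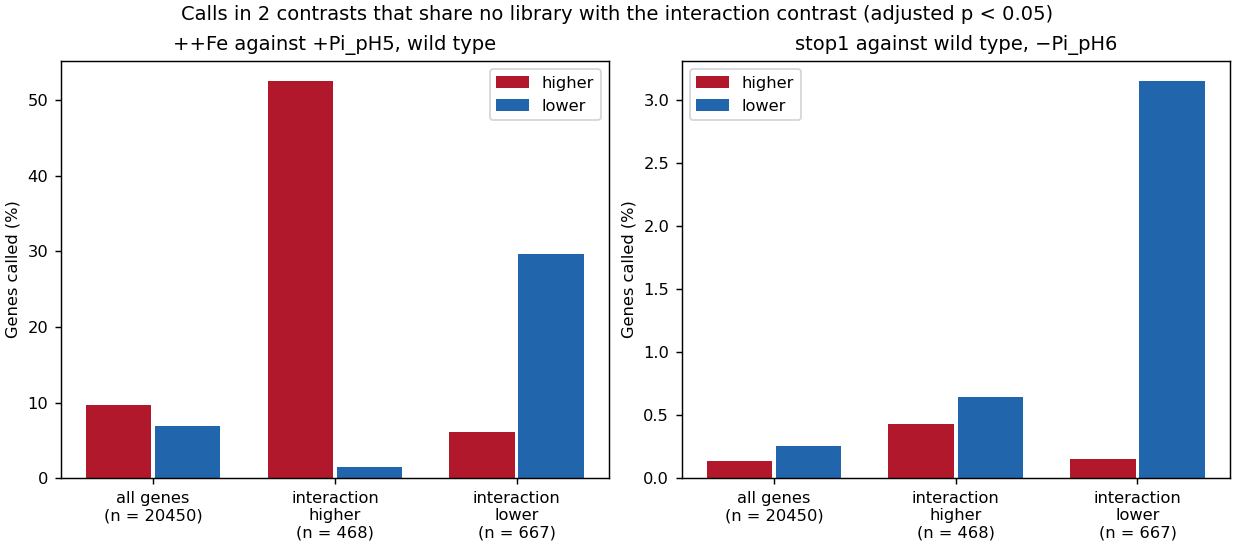
Percent of genes called higher (red) and lower (blue) in wild-type ++Fe against +Pi_pH5 (left) and in *stop1* against wild type in -Pi_pH6 (right), for all 20450 genes and for the 468 higher and 667 lower interaction genes. On the left the red bar reaches 52.6% for the higher genes against 9.67% of all genes, and on the right the blue bar of the lower genes reaches 3.15% against 0.254% (the y axes differ).

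The genotypes were also compared without Al at pH 6, in -Pi_pH6 libraries that are outside the interaction contrast but added to the estimate of the spread in its fit. There 28 genes (0.137%) were higher in *stop1* and 52 (0.254%) were lower. Of the 667 genes with a lower Al response 21 (3.15%) were lower in *stop1* at pH 6 and 1 was higher, and of the 468 with a higher response 3 were lower and 2 higher. Of the 475 lower genes called with the 8 libraries alone, 18 (3.79%) were lower at pH 6. Of the Al tolerance list 8 of 20 were lower in *stop1* at pH 6. *DGR2* was at 124 and 113 CPM in wild-type -Pi_pH6 and 35.2 and 35.6 in *stop1* -Pi_pH6 (difference -1.71, adjusted p = 5.7e-07), with no overlap. *HAK5* was at 0.685 and 0.396 CPM in wild type and 3.01 and 1.93 in *stop1* and was not called (adjusted p = 0.099). The number of calls at pH 6 depended on single libraries and was 2001 without wild-type -Pi_pH6 replicate 1, 35 without its replicate 2, 35 without *stop1* -Pi_pH6 replicate 1 and 26 without its replicate 2, against 80 with all.

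Promoters, taken as the 250 bases before to 50 bases after each start in RefSeq's TAIR10.1 annotation and searched on both strands, were available for 20413 genes tested, and for all 468 higher and 667 lower genes. The W-box letters TTGACC or TTGACT were in 47.6% of the higher promoters (95% Wilson interval 43.2 to 52.2), 38.1% of the lower promoters (34.5 to 41.8) and 33.0% of all promoters. The PHR1 site GNATATNC of the Pi starvation response was in 9.40%, 6.60% and 6.197%, the as-1 core TGACG in 26.3%, 19.6% and 23.8%, and the G-box CACGTG in 8.12%, 5.70% and 8.48%. A heat shock element (3 adjoining units, GAA and TTC in turn, with 2 free bases between units) was in 0 of the higher promoters, 1 of the lower and 111 (0.544%) of all. The mean GC content was 30.9%, 30.3% and 32.1%. These shares describe letters in a fixed window and carry no test.

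Where a list above had no call on a side, an unadjusted p under 0.05 was reached on that side by 2 Al tolerance genes (higher), 2 aquaporin genes (higher), 2 nitrate genes (higher), 1 iron gene (higher), 1 camalexin gene (lower) and 3 hormone genes (lower). Across edgeR's quasi-likelihood test, its likelihood ratio test and DESeq2 the calls on those sides were 0 for Al tolerance, 0 for aquaporin, 0, 1 and 1 for nitrate, 0, 1 and 1 for iron, 0 for camalexin and 0, 0 and 1 for hormone. In limma a replicate block called 2 aquaporin genes and 1 Al tolerance gene higher. A pseudocount of 5 called 1 aquaporin gene higher, and the 8 libraries alone called 1 aquaporin and 1 nitrate gene higher. Of the genes described here *STOP1*, *DGR2*, *HA7*, *ALS3*, *GDH1*, *PGIP1*, *IREG2*, *ATL15*, *AT3G20380*, *TMT1*, *EXPA7*, *CASP1*, *PER64*, *ASA1*, *AT5G43870* and *FRK1* overlap another annotated gene, and since the strand setting of the counting is not given in the sources used here, reads of overlapping genes cannot be told apart with certainty.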

How the data were processed

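Root tips of Arabidopsis, wild type and *stop1*, were profiled by RNA-seq in 6 media, with 2 libraries per condition and 24 in all. Per the submitters' processing notes, reads were aligned with HISAT2 2.1.0 to TAIR10 and counted per gene with HTSeq 0.11.2, and edgeR 3.28.0 was used. The strand setting of the counting is not given in the sources used here. The deposited table is a signal scaled by the authors, CPM normalised by the trimmed mean of M-values (TMM), with 20450 genes. Recomputed plain CPM exceeded 1 in at least 2 libraries for every gene, so genes with lower counts were already left out. Dividing by the value of a single read gave whole reads for 100% of the values (tolerance 0.01), with 17027929 to 21774148 reads per library in the 8 libraries compared. Replicates differed beyond sampling noise.

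The values were tested as log2(CPM + 1) with limma 3.58.1 in R 4.3.3 (trended variance, Benjamini-Hochberg adjustment over all genes). The 12 other libraries in the fit of 20 only added to the estimate of the spread, and the 4 *stop1* libraries with +Pi at pH 5 or pH 6 were left out because the labels of these 2 conditions may be exchanged. On the recovered reads edgeR 4.0.16 called 1522 genes with its likelihood ratio test and 999 with its quasi-likelihood test, and DESeq2 1.42.0 called 1469. The other alternatives were pseudocounts of 0.1 and 5, library size or relative log expression scaling, a mean CPM of at least 1, 8 or 24 libraries, a block for replicate number, and each library left out in turn. The procedure was also run on simulated data, and its error rate in the libraries used here was not tested.

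Members and lists were chosen with earlier results of these data known. Genes were named by these rules: per sign, the 10 called genes ranked first by p whose library-pair responses did not overlap between genotypes, *STOP1*, the first 2 called members per sign and list by p, and 13 genes named by the study. The 15 genes called in opposite directions, the aquaporin and nitrate families and the further list members were chosen after their values were seen. Symbols, positions, promoters (250 bases before to 50 after the start) and protein annotations came from RefSeq (TAIR10.1), with 20414 of 20450 identifiers matched and 20413 promoters.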

Additional observations from a re-analysis of the deposited data

Results flagged for a closer look

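The Al response differed between the genotypes, by limma's test of the interaction term, with a higher value in *stop1* for 468 genes and a lower one for 667. In 15 genes the direction itself differed: they rose in wild type and fell in *stop1*, each past the adjusted threshold in both genotypes and in the interaction. Their interactions on the log2(CPM + 1) scale were as follows. Transport and proton pumping genes were *HAK5* (-6.16), *TDT* (-3.17), *HA7* (-2.84), *AT3G62270* (-2.28) and *TMT1* (-1.92). Cell wall genes were *DGR2* (-3.13), which encodes a DUF642 protein, and *AT5G26670* (-0.91). Kinase and hormone genes were *AT1G51830* (-3.13), *PYL4* (-1.89) and *STY46* (-1.29). The others were *AT5G52790* (-4.25), *AT1G72870* (-1.87), *HS1* (-1.79), *AT2G16660* (-1.79) and *AO1* (-1.54).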

How the results depend on the processing

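With 2 libraries per condition, counts of called genes depended on single libraries. Leaving out 1 library at a time gave 607 to 1786 interaction calls (1135 with all), 216 to 865 higher, 363 to 921 lower, 232 to 1180 in the wild-type Al response, 3883 to 4319 in that of *stop1*, 1715 to 4162 in the ++Fe response, 26 to 2001 in the genotype difference at pH 6 and an r between the Al responses of 0.45 to 0.67. Likelihood ratio and quasi-likelihood below are edgeR's tests. The quasi-likelihood test gave 304 higher calls. The likelihood ratio test and DESeq2 gave 1072 and 1020 calls in wild type and 293 and 312 at pH 6, and DESeq2 gave r = 0.51. The other alternatives gave 860 (8 libraries alone) to 1522 (likelihood ratio) interaction calls, and between 720 and 1135 of these were shared with the 1135. Same-numbered libraries of the 4 groups deviated together with correlations from -0.07 to 0.45. The highest were 0.45 (the -Pi_pH5 groups), 0.40 (wild-type +Al with *stop1* -Pi_pH5) and 0.29 (the wild-type groups). The main fit did not pair the libraries. A replicate block gave 1371 interaction calls, which included all 1135, and 126 calls at pH 6. With it 4 endodermis markers and 1 hypoxia gene were called lower. Of 109 called genes chosen by the naming rules or as list members, 67 stayed called under every alternative and 76 under every one that kept all 8 libraries. Directions reversed for *BBE4* with DESeq2 (-0.082, adjusted p = 0.99) and for *BBE6* with likelihood ratio (-1.41, adjusted p = 0.67), quasi-likelihood (-1.41, adjusted p = 0.69) and DESeq2 (-0.79, adjusted p = 0.87), where both wild-type and *stop1* references held few reads. The cause was not tested.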
